A study of Mus musculus with 8 samples.

Results

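The 9 genes described here are transcription factors that pattern the telencephalon and its dorsal progenitors: the homeodomain factors Emx1, Emx2, Pax6, Lhx2 and Otx1, the nuclear receptors Nr2f1, Nr2f2 and Nr2e1, and the DM-domain factor Dmrta2. They are the rows whose Ensembl ID maps to these symbols, and the symbols were chosen with earlier results of these data known. All 9 are among the 34866 rows of the deposited table and among the 17357 genes with enough reads to test. The table comes from RNA-seq of brains of Ohia mouse embryos, a model of hypoplastic left heart syndrome (HLHS), an underdevelopment of the heart's left side. The mutants carried mutant alleles on both copies of Sap130, a SIN3-HDAC corepressor subunit, and of Pcdha9, an alpha protocadherin (m/m at both genes). They were mutant 260-1 at E13.5 and mutants 195-3 and 303-2 at E14.5. The controls were heterozygous at both genes (+/m), so they carried a mutant allele of each, and no wild-type brain was analysed here. They were controls 260-2 and 260-3 at E13.5 and controls 195-2, 195-6 and 303-3 at E14.5. The middle number in these names may mark the litter, but the labels do not define it, and the data do not show that it pairs a mutant with its controls. Differences from same-numbered controls are therefore descriptions, and the tests here do not use the number.

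The telencephalon is the front end of the neural tube, and its dorsal wall becomes the cerebral cortex and hippocampus. Progenitors that line the ventricle there express opposing gradients of these factors: Emx2, Nr2f1 and Dmrta2 are strongest towards the back or the midline and Pax6 towards the front and side. Lhx2 holds cortical fate against that of the hem at the cortical margin, and Nr2e1 keeps progenitors dividing. Several of the factors are not restricted to the cortex. Pax6 is also made in diencephalon, hindbrain, cord and eye, Otx1 in midbrain, and Nr2f2 in the caudal ganglionic eminence, diencephalon, venous endothelium and connective tissue.

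Library totals were 36438282 to 47838448 counts, and a member had between 153 counts (Emx1 in mutant 195-3) and 12617 counts (Lhx2 in mutant 260-1). Levels are CPM, that is counts scaled to a common library size. Sap130 ranged over 32.6 to 35.9 CPM in mutants and 46.8 to 52.1 CPM in controls (log2 change -0.54, adjusted p = 0.00291). Pcdha9 ranged over 9.47 to 18.2 CPM in mutants and 14.9 to 24.6 CPM in controls, with overlap (log2 change -0.66, adjusted p = 0.0212). Neuronal markers were abundant in every library, with 10 genes summing to 5905 to 7413 CPM in mutants and 6546 to 7721 CPM in controls. Mutants 195-3 and 260-1 and control 195-6 stood apart. In mutant 195-3 the cortical neuron marker Tbr1 was at 12.7 CPM, while mutants 260-1 and 303-2 had 107 and 51.0 CPM and controls 109.6 to 142 CPM. The summed level of 15 Hox genes of hindbrain and cord came to 0.41 CPM for mutant 260-1 and 2.82 CPM for control 195-6, against 326 to 451 CPM in the other mutants and 204 to 289.9 CPM in the other controls. In brain RNA, fewer cells of a type and less RNA per cell cannot be told apart.

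The promoter windows of 5 members are shown because the results below turn on these genes: Emx1 varied most between brains, Emx2, Lhx2 and Dmrta2 had nearly parallel levels, and Nr2f2 was the gene that differed between genotypes. Each window runs from 250 bases before to 50 bases after the RefSeq start site (GRCm38.p6), in the gene's direction. Capitals mark matches, on either strand, to the GC box GGGCGG, the CCAAT box CCAAT and the homeodomain core TAATTA. Where GC boxes overlap, the capitals run on.
Emx1, chr6:85187681-85187980, plus strand: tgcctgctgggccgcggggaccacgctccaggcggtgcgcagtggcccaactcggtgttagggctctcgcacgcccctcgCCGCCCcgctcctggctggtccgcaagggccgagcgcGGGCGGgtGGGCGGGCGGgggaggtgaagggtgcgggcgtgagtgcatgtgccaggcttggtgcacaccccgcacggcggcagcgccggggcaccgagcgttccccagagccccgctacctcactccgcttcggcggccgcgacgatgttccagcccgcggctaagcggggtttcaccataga
Emx2, chr19:59458440-59458739, plus strand: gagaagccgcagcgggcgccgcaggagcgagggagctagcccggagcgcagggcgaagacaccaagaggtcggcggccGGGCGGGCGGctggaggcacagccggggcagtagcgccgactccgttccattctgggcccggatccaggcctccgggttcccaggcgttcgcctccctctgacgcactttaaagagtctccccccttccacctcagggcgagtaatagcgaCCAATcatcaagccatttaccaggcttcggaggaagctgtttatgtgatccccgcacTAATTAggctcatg
Lhx2, chr2:38339031-38339330, plus strand: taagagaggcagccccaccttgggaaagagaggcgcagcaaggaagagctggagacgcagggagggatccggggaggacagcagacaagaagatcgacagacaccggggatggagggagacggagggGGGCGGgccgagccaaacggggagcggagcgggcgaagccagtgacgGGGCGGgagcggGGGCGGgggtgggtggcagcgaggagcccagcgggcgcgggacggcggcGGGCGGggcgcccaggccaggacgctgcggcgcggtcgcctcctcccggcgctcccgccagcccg
Dmrta2, chr4:109977775-109978074, plus strand: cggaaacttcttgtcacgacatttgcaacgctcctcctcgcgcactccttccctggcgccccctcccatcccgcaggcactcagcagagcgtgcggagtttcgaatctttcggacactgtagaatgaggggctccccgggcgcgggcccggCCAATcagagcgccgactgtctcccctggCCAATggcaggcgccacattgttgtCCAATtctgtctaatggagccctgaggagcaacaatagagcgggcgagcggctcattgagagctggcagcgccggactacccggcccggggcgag
Nr2f2, chr7:70366697-70366996, minus strand: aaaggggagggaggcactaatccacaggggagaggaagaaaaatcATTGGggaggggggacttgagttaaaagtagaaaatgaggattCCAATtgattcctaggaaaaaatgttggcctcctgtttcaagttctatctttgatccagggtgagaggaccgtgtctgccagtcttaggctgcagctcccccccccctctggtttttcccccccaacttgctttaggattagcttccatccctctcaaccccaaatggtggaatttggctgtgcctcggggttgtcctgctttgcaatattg
Windows were found for 8 of the 9 genes, all but Otx1, and 3 of the 8 had a second window. The GC box was in 4 of the 11 member windows (Emx1, Emx2, Lhx2 and Nr2f1) and in 35.7% of 32851 windows of all genes. CCAAT was in 4 of the 11 (Emx2, Pax6, Nr2f2 and Dmrta2) and in 37.4% of all windows, so both were about as frequent as over all genes. TAATTA was in 1 of the 11, that of Emx2, 36 bases after the start site, and in 5.29% of all windows. The nuclear receptor half-site AGGTCA and the TATA box TATAAA were in no member window, and in 16.3% and 13.6% of all windows. The Emx1 and Lhx2 windows were rich in G and C (74.0% and 74.7%) with 37 and 34 CpG dinucleotides. The Nr2f2 window had 49.7% and 2 CpG. For Nr2f2 and Dmrta2, the stretch checked after the start site matched no GENCODE transcript of the gene. Whether these windows hold the start sites used in these brains is therefore not known.

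The study set mutant brains against control brains to ask how gene expression differs in this HLHS model. Nr2f2 was higher in every mutant than in any control, and it was the single member that passed the test. The other 8 members split by brain: most were above the same-numbered controls in mutants 260-1 and 303-2 and below them in mutant 195-3. Emx1 and Nr2e1 were lower in mutant 195-3 by the widest margins, and Dmrta2 and Lhx2 followed. No other member passed this test, and with an offset for transcript length and GC content Nr2f1 passed as well.

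**Figure D1:**
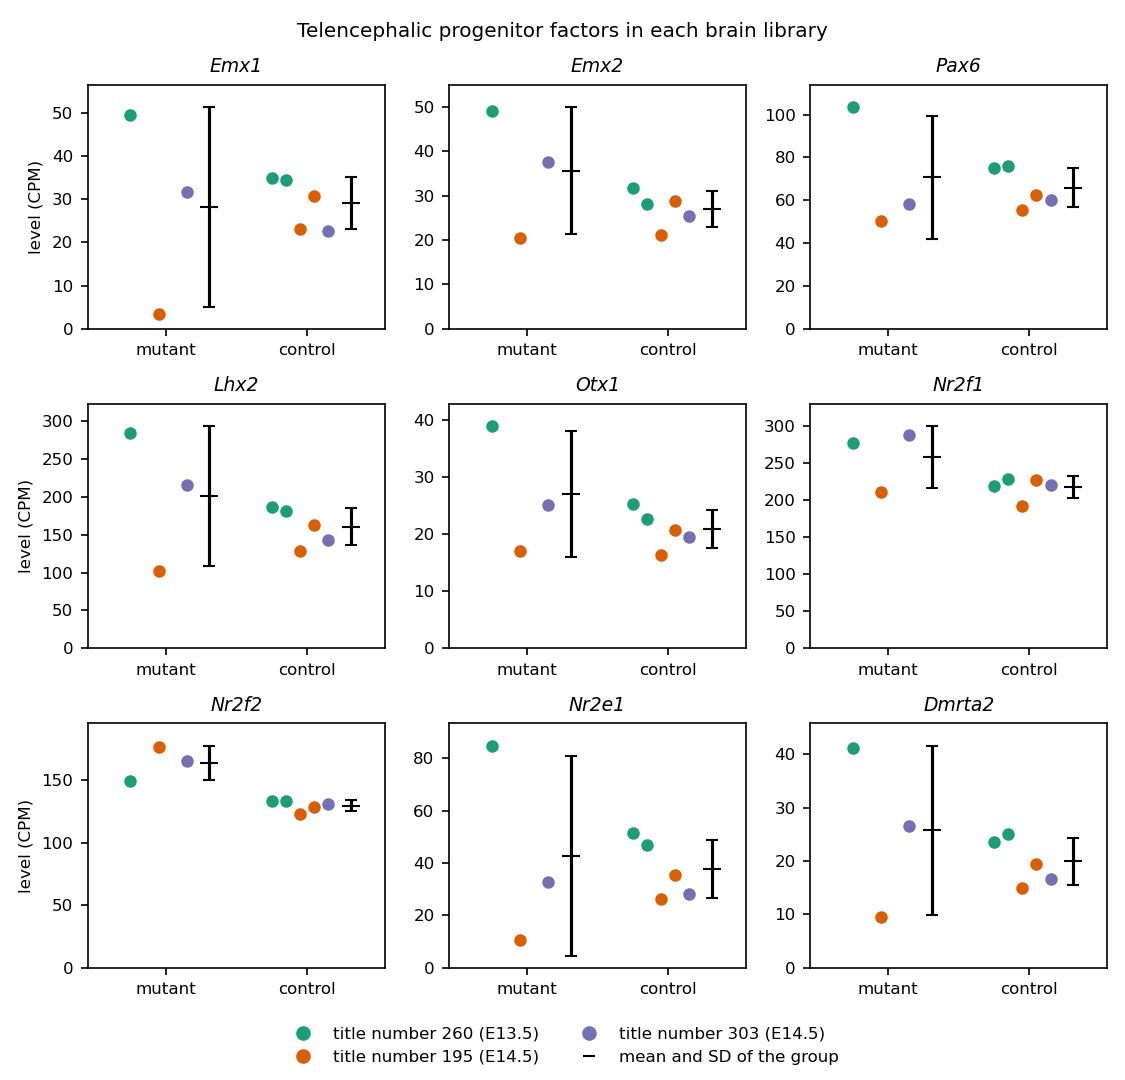
Level (CPM) of each of the 9 genes in each of the 8 libraries, mutants at the left and controls at the right, coloured by the middle number of the sample name, with the mean and SD of each group. Mutants spread widely and overlap the controls for 8 genes, while Nr2f2 lies at 149.7 to 177 CPM in mutants and at 123 to 134 CPM in controls.

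Emx1 (ENSMUSG00000033726, GRCm38 chr6:85187438-85204462, plus strand) is a homeobox gene of the dorsal telencephalon. Its level was 49.5, 3.45 and 31.6 CPM in mutants 260-1, 195-3 and 303-2, against 34.8, 34.5, 23.0, 30.8 and 22.5 CPM in controls 260-2, 260-3, 195-2, 195-6 and 303-3. Mutant 260-1 was above every control, mutant 195-3 far below every control and mutant 303-2 among them. The means were 28.2 ± 23.2 CPM in mutants (SD, n = 3) and 29.1 ± 6.03 CPM in controls (n = 5), giving a log2 fold change of -0.14 (SE 0.68; adjusted p = 0.908 by the edgeR quasi-likelihood test, which gives all adjusted p-values here unless another is named). The log2 difference from the mean of the same-numbered controls was 0.51 in mutant 260-1, -2.93 in mutant 195-3 and 0.49 in mutant 303-2.

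Its paralog Emx2 (ENSMUSG00000043969, chr19:59458372-59465357, plus strand), which promotes caudal and medial cortical identity, varied less. It was at 49.0, 20.4 and 37.5 CPM in mutants 260-1, 195-3 and 303-2, against 31.6, 28.0, 21.1, 28.9 and 25.4 CPM in controls in the order above. Mutants 260-1 and 303-2 were above every control and mutant 195-3 was just below the lowest (log2 change 0.39, SE 0.21, adjusted p = 0.203). The ratio of Emx1 to Emx2, each per kilobase of exon, was 1.39, 0.232 and 1.16 in mutants 260-1, 195-3 and 303-2, and 1.22 to 1.69 in the 5 controls. The lower level in mutant 195-3 was thus unequal between the paralogs, and per kilobase Emx1 was the lower of the pair in that library alone.

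Pax6 (ENSMUSG00000027168, chr2:105668900-105697364, plus strand) encodes a paired-domain and homeodomain factor of radial glia. Levels reached 103.7, 50.2 and 58.1 CPM in mutants 260-1, 195-3 and 303-2, against 75.2, 75.8, 55.5, 62.7 and 60.3 CPM in controls. Its groups overlapped and its fitted change was the smallest but one of the 9 (log2 0.09, SE 0.11, adjusted p = 0.623). Pax6 was the 1 member that was not higher in mutant 303-2 than in control 303-3 (log2 difference -0.05).

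Lhx2 (ENSMUSG00000000247, chr2:38339281-38369733, plus strand), a LIM-homeodomain selector of cortical fate, had the widest spread in CPM. It was at 285, 102 and 216 CPM in mutants 260-1, 195-3 and 303-2, against 186, 182, 129, 163 and 143 CPM in controls. Mutants 260-1 and 303-2 lay above every control and mutant 195-3 below every control (log2 change 0.32, SE 0.24, adjusted p = 0.389). Otx1 (ENSMUSG00000005917, chr11:21994764-22002897, minus strand), a relative of the fly gene orthodenticle that acts in forebrain and midbrain, was at 38.9, 17.0 and 25.1 CPM in mutants, against 25.2, 22.7, 16.4, 20.6 and 19.5 CPM in controls. Mutant 195-3 was within the control range for Otx1, and the change did not pass after adjustment (log2 0.36, SE 0.15, unadjusted p = 0.0433, adjusted p = 0.124).

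Among the nuclear receptors, Nr2f2 (COUP-TFII; ENSMUSG00000030551, chr7:70351944-70366735, minus strand) was at 149.7, 177 and 166 CPM in mutants 260-1, 195-3 and 303-2, against 134, 133, 123, 129 and 131 CPM in controls. The lowest mutant was above the highest control. The means were 164 ± 13.7 CPM in mutants (SD, n = 3) and 129.7 ± 4.44 CPM in controls (n = 5), giving a log2 fold change of 0.34 with SE 0.07 and adjusted p = 0.0105. The call held under each alternative run, with adjusted p between 0.000506 and 0.0457. Of all genes tested, 10.9% were called higher and 9.74% lower, and 11.3% had every mutant above every control, so 1 call among 9 members is close to the share over all genes. Unlike Emx1, Nr2f2 was highest in mutant 195-3, where it exceeded controls 195-2 and 195-6 by log2 0.50.

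Nr2f2 is also made outside the telencephalon, and among markers of such tissues those of diencephalon and midbrain were higher in mutants. The summed level of 10 diencephalic genes was 601 to 759 CPM in mutants and 406 to 475 CPM in controls, with 8 of 10 called higher, among them Irx3 (log2 change 1.14). That of 10 midbrain genes was 445 to 586 CPM in mutants and 295 to 365 CPM in controls, with 8 of 10 higher. For endothelium and connective tissue the summed ranges overlapped and the share called was near that of all genes. Of the endothelial markers 1 of 9 was higher (Pecam1, log2 change 0.34), with sums of 249.6 to 315 CPM in mutants and 254 to 287 CPM in controls. Of those of meninges and connective tissue 1 of 8 was higher (Lum), with sums of 539.8 to 938 CPM in mutants and 481 to 733 CPM in controls. No defining marker of these 4 lists was at 0 in any library. Their part in the Nr2f2 result was not tested.

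Nr2f1 (COUP-TFI; ENSMUSG00000069171, chr13:78188973-78199757, minus strand), which promotes caudal area identity in the cortex, was at 277, 211 and 288 CPM in mutants, against 219, 229, 192, 227 and 221 CPM in controls. Mutants 260-1 and 303-2 were above every control and mutant 195-3 within the control range (log2 change 0.25, SE 0.10, unadjusted p = 0.029, adjusted p = 0.0956). With an offset for transcript length and GC content the change was 0.36 and was called (adjusted p = 0.0337), under a scaling by which 17.2% of all genes were called higher. The ratio of Nr2f1 to Nr2f2 per kilobase was 3.13, 2.02 and 2.95 in mutants 260-1, 195-3 and 303-2, and 2.65 to 3.00 in controls. It was lowest in mutant 195-3, where Nr2f1 was close to the mean of controls 195-2 and 195-6 (log2 difference 0.01) and Nr2f2 was above them.

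Nr2e1 (Tlx; ENSMUSG00000019803, chr10:42561963-42583632, minus strand), a receptor of dividing forebrain progenitors, was at 84.9, 10.5 and 32.8 CPM in mutants 260-1, 195-3 and 303-2, against 51.3, 46.9, 26.4, 35.6 and 28.0 CPM in controls. Dmrta2 (Dmrt5; ENSMUSG00000047143, chr4:109978053-109983687, plus strand), which acts at the cortical midline, was at 41.2, 9.55 and 26.6 CPM in mutants, against 23.5, 25.0, 14.995, 19.4 and 16.5 CPM in controls. For both, mutant 260-1 was above and mutant 195-3 below all controls. For Dmrta2 mutant 303-2 was above them too, and for Nr2e1 it was not. Neither passed (log2 change 0.02, SE 0.43, adjusted p = 0.978 for Nr2e1, and 0.34, SE 0.32, adjusted p = 0.478 for Dmrta2).

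Read by brain, the members divided into those that were far lower in mutant 195-3 and those that were not. Mutant 260-1 exceeded the mean of controls 260-2 and 260-3 for 9 of 9 members, with a median log2 difference of 0.63 (0.01 over all genes). Mutant 303-2 exceeded control 303-3 for 8 of 9, with a median of 0.38 (0.01 over all genes). Mutant 195-3 was below the mean of controls 195-2 and 195-6 for 7 of 9, with a median of -0.27 (-0.0049 over all genes), in the order Emx1 (-2.93), Nr2e1 (-1.54), Dmrta2 (-0.84), Lhx2 (-0.52), Emx2 (-0.27), Pax6 (-0.23) and Otx1 (-0.11). Controls 195-2 and 195-6 differed by 0.07 to 0.45, with 195-6 above 195-2 for all 9 members (48.6% of all genes). In mutant 195-3 the differences of Emx2, Otx1 and Nr2f1 were smaller than the gap between these controls. Otx1 and Nr2f1 lay between the controls, and Emx2 (20.4 CPM) was just below both (21.1 and 28.9 CPM). Being higher in mutants 260-1 and 303-2 and lower in mutant 195-3 was common to 6 of 9 members (Emx1, Emx2, Lhx2, Otx1, Nr2e1 and Dmrta2), as against 11.8% of all genes.

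**Figure D2:**
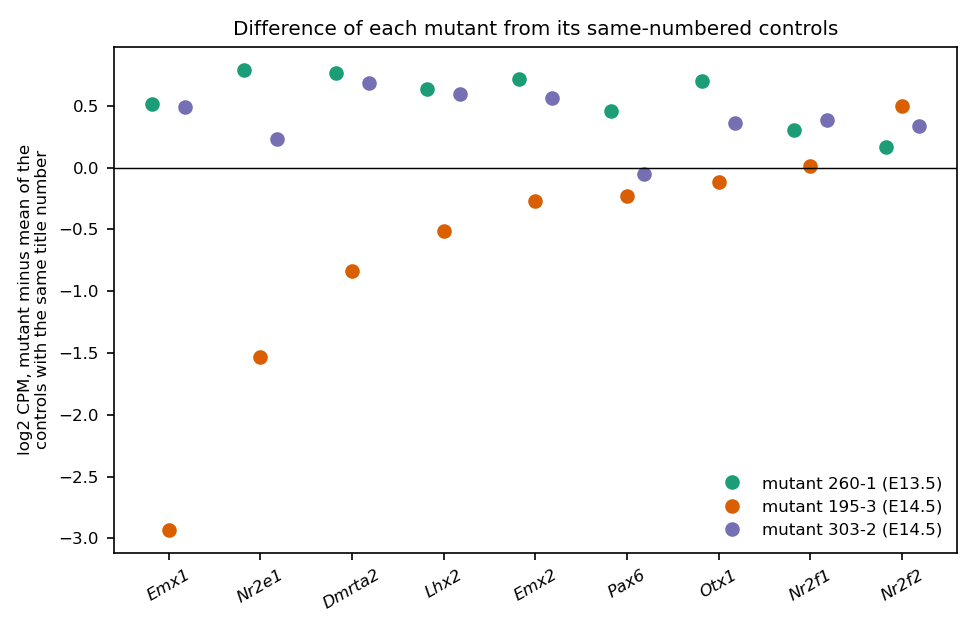
Log2 CPM of each mutant minus the mean of the controls with the same middle number, for the 9 genes ordered by the value in mutant 195-3. Mutant 195-3 ranges from -2.93 for Emx1 to 0.50 for Nr2f2, while mutants 260-1 and 303-2 lie at or above -0.05 for every gene.

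Set against all 5 controls, which does not use the numbers, mutant 260-1 was above every control for 9 of 9 members, where 35.6% of all genes were above and 32.2% below. Mutant 303-2 was above every control for 5 members (31.5% of all genes) and below for none (27.2%). Mutant 195-3 was below every control for 6 members (25.1% of all genes) and above for Nr2f2 alone (26.6%). Mutant 260-1 is also the library almost without Hox RNA, and mutant 195-3 the library with the lowest Tbr1. The part of tissue composition in these values was not tested. Without mutant 260-1 and control 195-6, the members called were Nr2f2 alone.

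Leaving out mutant 195-3 changed the account of the group most. With 2 mutants and 5 controls, 7 of 9 members were called higher, where 14.3% of all genes were called higher. Dmrta2 was higher by log2 0.68 (SE 0.11, adjusted p = 0.00199), Emx2 by 0.62 (SE 0.12, adjusted p = 0.00399) and Lhx2 by 0.58 (SE 0.09, adjusted p = 0.00159). Otx1 followed at 0.53 (adjusted p = 0.00768), Emx1 at 0.39 (adjusted p = 0.0374), Nr2f1 at 0.35 (adjusted p = 0.00954) and Nr2f2 at 0.26 (adjusted p = 0.0188). Nr2e1 and Pax6 did not pass, at 0.44 (adjusted p = 0.0848) and 0.19 (adjusted p = 0.198). Without any 1 of the other 7 libraries, Nr2f2 was the member called. The 2 mutants left without mutant 195-3 were 260-1 and 303-2, with Hox sums of 0.41 and 326 CPM. Mutant 260-1 was above every control for 9 members and mutant 303-2 for 5. Control 195-6, with a Hox sum of 2.82 CPM, was above control 195-2 for all 9 members. The part of tissue composition in the 7 calls was not tested.

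**Figure D3:**
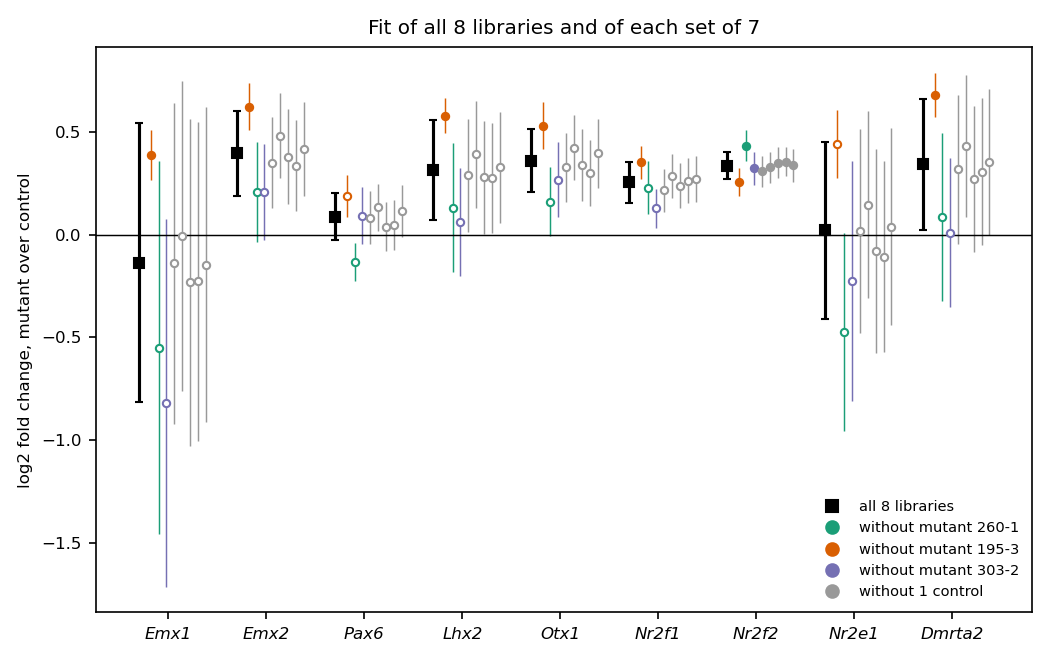
Log2 fold change of each gene, mutant over control, with all 8 libraries (squares) and with each library left out (circles), with bars of 1 SE. Filled circles passed at an adjusted p under 0.05. Only the set without mutant 195-3 has calls for genes other than Nr2f2, where Emx1 is at 0.39, against -0.14 with all libraries.

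The members were next set beside the summed level of 16 genes of neural progenitors in all brain regions. That sum was 3697, 2278 and 2845 CPM in mutants 260-1, 195-3 and 303-2, against 2902, 2883, 2209, 2462 and 2252 CPM in controls 260-2, 260-3, 195-2, 195-6 and 303-3. Of the 16 genes 6 were called higher (10.9% of all genes), and the other 10 did not pass. Among the 6 were Hes5 (log2 change 0.90) and Hes1 (0.51), targets of Notch signalling, and the filament gene Vim (0.42). The sum was above that of same-numbered controls by log2 0.35 in mutant 260-1 and 0.34 in mutant 303-2, and below by 0.03 in mutant 195-3. It is weighted by abundant genes such as Vim and Fabp7. The median of the 16 genes was 79.4 CPM in mutant 195-3, against 115.9 and 128.1 CPM in controls 195-2 and 195-6. There, 7 of the 16 genes were below all 5 controls (25.1% of all genes) and 3 above them (26.6%). In mutant 260-1, 14 of the 16 were above all 5 controls (35.6% of all genes) and 1 below (32.2%). In mutant 303-2, 5 were above, close to the 31.5% of all genes, and 1 below (27.2%). The sum was higher in mutants 260-1 and 303-2, as most members were, and its part in their levels was not tested.

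As a share of the progenitor sum, each of the 9 members overlapped between groups. In mutant 260-1 the shares exceeded those of controls 260-2 and 260-3 for 7 members, by log2 0.10 (Pax6) to 0.44 (Nr2e1), and were lower for Nr2f1 (-0.05) and Nr2f2 (-0.19). In mutant 303-2 they ranged from -0.39 for Pax6 to 0.35 for Dmrta2, with Nr2f2 at 0.0024. In mutant 195-3 the shares of Emx1 (-2.91), Nr2e1 (-1.505), Dmrta2 (-0.80) and Lhx2 (-0.48) were low as well, against a sum close to that of controls 195-2 and 195-6 but a lower median of the 16 genes. Emx1 and Nr2e1 varied most in share among mutants, with coefficients of variation of 72.7% and 71.0%, against 17.1% for Pax6.

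**Figure D4:**
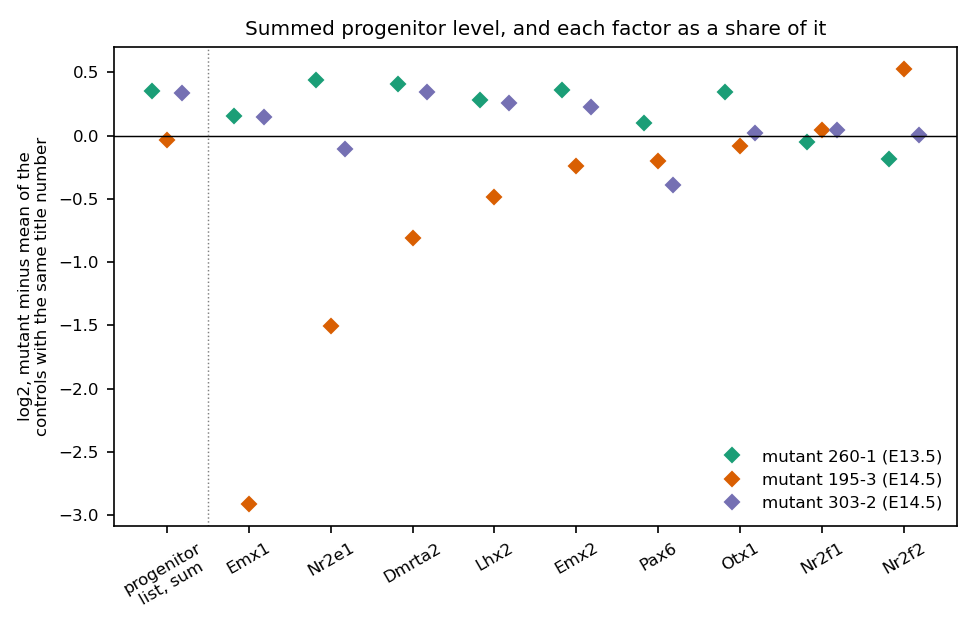
Log2 difference of each mutant from the mean of the controls with the same middle number, for the summed level of 16 progenitor genes (left of the dotted line) and for each of the 9 genes as a share of that sum. The sum is raised by 0.35 and 0.34 in mutants 260-1 and 303-2, and in mutant 195-3 the share of Emx1 is lower by 2.91 while that of Nr2f2 is higher by 0.53.

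Per kilobase of exon, the order of levels by mean differed little between groups. All annotated exons were counted, 11694 bases for Pax6 and 2184 for Emx1, so the order between genes depends on the annotation. In mutants it was Nr2f1 (50.8 CPM per kb), Lhx2 (45.7), Nr2f2 (19.0), Emx1 (12.9), Emx2 (11.9), Nr2e1 (11.5), Dmrta2 (8.83), Pax6 (6.04) and Otx1 (4.97). In controls it was Nr2f1 (42.7), Lhx2 (36.6), Nr2f2 (15.04), Emx1 (13.3), Nr2e1 (10.1), Emx2 (8.99), Dmrta2 (6.81), Pax6 (5.63) and Otx1 (3.85). In mutants only the ranges of Lhx2 and Nr2f2 were apart among neighbours, and in controls those of Lhx2 and Nr2f2 and of Pax6 and Otx1. Nr2e1 and Emx2 were the pair whose order differed. Over all 8 libraries the log2 range of CPM was 3.82 for Emx1, 3.00 for Nr2e1 and 2.10 for Dmrta2, wider than for 99.0%, 98.3% and 95.2% of all genes, and it was narrowest for Nr2f2 (0.53) and Nr2f1 (0.58).

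Levels of several members ran in parallel across the 8 libraries, which share their scaling and the 1 outlying mutant. The correlation of log2 CPM was 0.991 for Lhx2 and Dmrta2 (0.989 without mutant 195-3), 0.973 for Emx2 and Lhx2 and 0.926 for Emx1 and Nr2e1. Without mutants 195-3 and 260-1 these pairs were at 0.975, 0.961 and 0.899, while Emx2 and Pax6 fell from 0.798 to 0.287. Between Emx1 and Nr2f2 the correlation was -0.539 over 8 libraries and 0.526 without mutant 195-3, so the sign rested on that library. The 3 tested genes most like each member by this correlation were none of the other 8. They were Cdc20, Llgl1 and Tacc3 for Dmrta2 (0.998 to 0.996), Mms22l, Rrm2 and Aurka for Nr2e1 (0.998 to 0.997), Rpa1, Gtf2e1 and Rasl11a for Lhx2 (0.996 to 0.995) and Gm20521, Nek6 and Gsr for Emx1 (0.996 to 0.988). For Emx2 they were Dbf4, Asf1b and Rcc1, for Otx1 Sinhcaf, Rnf4 and Igf2bp3, and for Pax6 Stat4, Lbr and Gnpat. For Nr2f1 they were Psme3, Pmpcb and Ccdc85c, and for Nr2f2 Ube2e3, Mgst1 and Sharpin, all with r of 0.981 or more. These genes were picked as the highest of all genes tested over 8 libraries, so their high r follows in part from that choice. Gm20521 (0 to 0.99 CPM) and Stat4 (0.54 to 2.17 CPM) had very low levels.

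The comparison of E14.5 with E13.5 is also one of numbers 195 and 303 with number 260, and stage and number cannot be told apart. Fitted stage differences were negative for 8 of 9 members and near 0 for Nr2f2 (log2 0.03). Pax6 alone passed, at 50.2 and 58.1 CPM in E14.5 mutants and 103.7 CPM in the E13.5 mutant, and at 55.5, 62.7 and 60.3 CPM in E14.5 controls and 75.2 and 75.8 CPM in E13.5 controls. It was lower at E14.5 by log2 -0.56 (SE 0.11, adjusted p = 0.0432), where 1.01% of all genes were called lower. The call was lost when any 1 of 6 libraries was left out: without mutants 260-1 (adjusted p = 0.190) or 303-2 (0.0545), or without controls 260-2 (0.0971), 260-3 (0.0887), 195-2 (0.137) or 303-3 (0.126). The difference itself was smaller without mutant 260-1 (log2 -0.35) and between -0.55 and -0.65 without any of the other 5. Nr2e1 had a larger stage difference with a larger error (log2 -1.19, SE 0.42, adjusted p = 0.149), and Otx1 was at -0.55 (SE 0.15, adjusted p = 0.0726).

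Without mutant 195-3, 6 members were called lower at E14.5, where 3.28% of all genes were: Nr2e1 (log2 -0.91), Dmrta2 (-0.56), Emx1 (-0.51), Pax6 (-0.50), Otx1 (-0.44) and Lhx2 (-0.36). With DESeq2 on all 8 libraries 3 members were called lower (Pax6, Otx1 and Nr2e1), where 5.42% of all genes were. In controls alone, 7 of 9 members had each E14.5 brain below both E13.5 brains, as did 17.9% of all genes. The mutant effect at E14.5 minus that at E13.5 passed the edgeR test for none of the 9 members (0.104% of all genes), and 1 of them, Pax6, had an unadjusted p under 0.05 (log2 -0.59, SE 0.15, adjusted p = 0.242). E13.5 has a single mutant, the one almost without Hox RNA.

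Other genes linked to the telencephalon were counted from lists. The RNA came from brains, so the region in which a listed gene differed is not known and was not tested. Genes of the diencephalon and midbrain lists were also called higher, 8 of 10 in each. Of 19 cortical genes that act with the members, 2 were called higher and 2 lower in mutants, with a median log2 change of -0.26 (-0.00052 over all genes, 0.32 over the 9 members). Id4, an inhibitor of bHLH factors, had 402 ± 10.6 CPM in mutants (SD, n = 3) against 296 ± 24.7 CPM in controls (n = 5; log2 change 0.45, adjusted p = 0.00396). The neurogenic bHLH gene Neurog1 was also higher (0.84), and the ETS factor Etv5 (log2 change -0.43) was lower, as was Bcl11a (-0.39), a zinc-finger factor named after its value was seen. Of 19 genes of the telencephalic signalling centres 5 were higher and 14 did not pass (median 0.14). Among the 5 was Dbx1 with 29.5 ± 4.82 CPM in mutants against 11.1 ± 4.81 CPM in controls (log2 change 1.54, adjusted p = 0.00367), beside the Wnt agonists Rspo1 (0.77) and Rspo2 (0.46). The other 2, named after their values were seen, were Wnt3a (0.87) and Lmx1a (0.41), of the cortical hem and roof plate. The 14 that did not pass went both ways, among them Fgf15 (0.76), Rspo3 (-0.0059) and Wnt2b (-0.25, adjusted p = 0.193). Wnt2b had every mutant below every control. Of 14 genes of the ventral telencephalon 2 were higher, among them Gsx1 (0.82), and 12 did not pass, with a median of -0.68. DESeq2 called 2 genes of this list lower. Lhx8 (log2 change -3.11, adjusted p = 0.115) and Lhx6 (-2.52, adjusted p = 0.156), factors of the medial ganglionic eminence named after their values were seen, had every mutant below every control. The summed list was at 763, 316 and 244 CPM in mutants 260-1, 195-3 and 303-2, against 559 to 668 CPM in controls.

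Markers of the cells that these progenitors produce were low in mutant 195-3. Beside Tbr1, given above, Eomes, a marker of intermediate progenitors, was at 103, 10.3 and 70.6 CPM in mutants 260-1, 195-3 and 303-2, against 74.8 to 103 CPM in controls. Mutant 303-2 was thus below the controls for Tbr1 and Eomes while 5 of the 9 members were above every control in the same library. None of the 15 Hox genes was called by edgeR or by DESeq2, and 0 had an unadjusted p under 0.05. With mutant 260-1 and control 195-6 almost without Hox RNA, SEs were 1.48 (Hoxa2) to 2.17 (Hoxb5) on the log2 scale. The test could therefore not decide whether these genes differed. In the other libraries the Hox sum was 326 and 451 CPM in mutants and 204 to 289.9 CPM in controls. The other lists had few calls: 1 higher and 1 lower (Dct) of 7 tested eye genes and 1 higher of 7 blood genes (Hbb-y). Of 6 microglial genes 2 were lower (P2ry12 and Cx3cr1), and of 6 choroid plexus genes 1 was higher (Otx2). Over all genes tested, 10.9% were called higher and 9.74% lower. The choroid plexus genes that did not pass had negative changes: Kcnj13 (-0.54), Ttr (-0.51), Folr1 (-0.33), Kl (-0.31) and Clic6 (-0.30). Among microglial genes that did not pass, Aif1 (0.54), C1qa (0.255) and Trem2 (0.10) were positive and Csf1r (-0.14) negative. Of 10 neuronal genes 3 were lower (Elavl3, Rbfox3 and Dcx) and 1 was higher, Elavl4, named after its value was seen.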

How the data were processed

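RNA from the brains of 8 mouse embryos was purified on DNase-treated columns and sequenced from TruSeq RNA v2 libraries, per the labels' protocols. Reads from this kit carry no strand. The spans of Emx2, Pax6, Lhx2, Nr2f1 and Nr2f2 overlap genes annotated on the opposite strand, by 264 bases (Emx2) to 4401 bases (Lhx2). Reads from those overlaps cannot be assigned by strand. The submitters' processing notes name HTSeq 0.5.4p5, TopHat2 2.0.9 and edgeR 3.4.2, and mm10 and GRCm38, without the role of each. The authors deposited expected counts, that is estimated counts per gene with no normalisation, and 66.0% to 68.9% of values per library were whole numbers. The step that made the fractions is not stated in these sources.

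Counts were rounded and tested in R 4.3.3 with the edgeR 4.0.16 quasi-likelihood F test (robust, TMM factors, minimum count 10 in filterByExpr, stage and genotype in the model), adjusted by Benjamini-Hochberg over all 17357 genes tested, with a call at an adjusted p under 0.05. The procedure was tested on simulated counts in which every gene had the same variability and no library stood apart. That simulation therefore does not cover single brains that differ, as in these data. Log2 CPM used a prior count of 2, and levels per kilobase used all annotated exons. Symbols came from GENCODE M21 on GRCm38 (34652 of 34866 identifiers matched), promoters from RefSeq. Totals of 36438282 to 47838448 counts give small counting error for every member, so the spread between brains sets the precision. P-values set a difference against the spread between these brains, which edgeR estimated with information shared across genes. The series text counts the brains as 3 mutants and 5 littermate controls.

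Named genes were the 9 members, Tbr1, Eomes, Sap130, Pcdha9, the 3 genes most correlated with each member over the 8 libraries, and up to 3 called genes of smallest p from each of 14 marker lists. A few of these genes are not reported here. The members and lists were chosen with earlier results of these data known. Alternatives were RLE and upper quartile factors, no filter, DESeq2 1.42.0, a block by title number, a length and GC offset, other samples and each library left out.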

Additional observations from a re-analysis of the deposited data

Results flagged for a closer look

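Nr2f1 in control 195-2, at 192.3 CPM, was far from the other 4 controls (219 to 229 CPM). With groups of 5, such a gap arises by chance in about 1 of 20 groups, and 9 control groups were looked at.

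Pax6 was higher than in its same-numbered controls by log2 0.4575 in the E13.5 mutant 260-1, while both E14.5 mutants were lower than theirs, by 0.23 in mutant 195-3 and 0.05 in mutant 303-2. The difference between stages, tested as an interaction in edgeR, had an adjusted p of 0.242.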

How the results depend on the processing

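The count of genes called between genotypes was 3576, and it was 1478 with no stage term, 1518 with E14.5 samples only, 1970 without mutant 260-1 and control 195-6, and 1317 to 4984 with each library left out. The split of 1885 higher and 1691 lower became 1240 and 2090 with upper quartile factors and, with the offset for length and GC, 2988 and 1167. Of the members 1 was called higher, against 2 with that offset, 7 without mutant 195-3, 7 without mutants 195-3 and 260-1 and control 195-6 (a setting chosen after seeing the data, which leaves mutant 303-2 alone against 4 controls, assumed to vary like them, and so is no comparison of groups), and 1 to 7 with each library left out.

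Emx1 turned to 0.39 without mutant 195-3 and 0.45 in that added setting, and was at -0.82 to 0.39 with each library left out. Pax6 turned to -0.13 with E14.5 samples only, -0.10 without mutant 260-1 and control 195-6, -0.014 in the added setting, and was at -0.13 to 0.19 with each library left out. Nr2e1 turned to -0.041 with upper quartile factors, -0.47 with E14.5 samples only and -0.33 without mutant 260-1 and control 195-6, and was at -0.47 to 0.44 with each library left out. None of these values passed except that of Emx1. The cause was not tested.

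For stage, 565 genes were called, against 341 with upper quartile factors, 961 with no filter, 2364 with DESeq2, 28 without mutant 260-1 and control 195-6, and 0 to 1419 with each library left out. Members called lower were 1, against 3 with DESeq2, 0 without mutant 260-1 and control 195-6, and 0 to 6 with each library left out. The stage difference of Nr2f2 was 0.03, against -0.074 without mutant 260-1 and control 195-6, and -0.077 to 0.059 with each library left out.

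The title numbers were not treated as pairing the samples: deviations of same-numbered mutants and controls correlated by 0.202 (260), 0.032 (195) and 0.150 (303), and mutant 195-3 correlated best with control 303-3 (0.233). With the number as a replicate block, 2698 genes and 1 member (Nr2f2) were called, so no member's call changed, and Nr2e1 was at -0.069, and with the block and the offset together 3454 genes were called.

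With 3 mutants, 1 of them at E13.5, a single brain can decide a call, as mutant 195-3 did for 6 members. Depth did not limit the members, whose lowest count was 153.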
